A study of Mus musculus with 30 samples.

Results

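The cadherins and protocadherins of embryonic mouse olfactory tissue are described here gene by gene. Members were the genes whose array cluster carried a lone gene symbol made of Cdh and a number or beginning with Pcdh, with the brightest cluster taken for each gene. The rule gave 50 genes, 19 cadherins and 31 protocadherins, of 14860 genes with a symbol of their own in the array's gene table. Of the cadherins, 5 are type I (Cdh1, Cdh2, Cdh3, Cdh4 and Cdh15), 9 are type II (Cdh5, Cdh6, Cdh7, Cdh8, Cdh10, Cdh11, Cdh12, Cdh20 and Cdh22) and 5 are of other kinds (Cdh13, Cdh16, Cdh17, Cdh23 and Cdh26). Of the protocadherins, 9 are non-clustered (Pcdh1, Pcdh7, Pcdh8, Pcdh10, Pcdh12, Pcdh15, Pcdh17, Pcdh18 and Pcdh20) and 22 belong to the clustered beta group (Pcdhb1 to Pcdhb22). All 50 had a value on every array, and no filter on low values was applied. Members of the alpha and gamma clusters and some other cadherins were not analysed here.

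Cadherins are calcium-dependent adhesion molecules. Those of types I and II bind their like on the neighbouring cell and hold catenins, and through them actin, on the inner side of the membrane. Epithelia are known for E-cadherin (Cdh1), and neural and mesenchymal cells for N-cadherin (Cdh2) and Cdh11. Type II cadherins are known from the nervous system, where neighbouring groups of neurons and their targets carry different members. The clustered protocadherins lie in tandem along a chromosome, and neurons are known to switch on different subsets of them, which mark a cell's own branches. Olfactory neurons differentiate in the placode and its epithelium, from which axons and migrating cells enter the surrounding mesenchyme.

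RNA came from nasal tissue of embryos with an F1 background of C57Black6 and DBA, in pools of at least 4 embryos, 1 pool to a whole-transcript Affymetrix exon array. Wild-type tissue of different ages filled 24 arrays, 3 for each of 8 groups. These are the epithelial (EPI) and the mesenchymal (MES) fraction of the olfactory placode (OPL) at E11.5, of the olfactory epithelium (OE) at E12.5, of the OE at E14.5 and of the vomeronasal organ (VNO) at E14.5; the labels still name the E12.5 tissue placode. A further 6 arrays are E12.5 tissue whose labels name no fraction, and which the authors describe as dissected OE and VNO tissue. Of these, 3 are from embryos homozygous for a Dlx5 null allele carrying lacZ (Dlx5 KO) and 3 from WT embryos. Dlx5 is a homeobox transcription factor of the placode. From the mutants the whole epithelial lining of the nose was taken, since olfactory and respiratory epithelium could not be told apart in it. Genotype and dissected tissue thus differ together. Mutants also came from crosses of heterozygotes and WT embryos from WT parents.

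Deposited array medians differed between the time-course groups (6.41 to 7.17 on the log2 scale), so values are given after quantile normalization over the 24 time-course arrays and, apart from them, over the 6 Dlx5 arrays; levels of the 2 sets are not comparable. Replicates of a time-course group correlated at 0.961 to 0.990 over all clusters, and the lowest values were those of EPI OE E14.5. On that group's replicate 2 the mean of 7 neuron markers was 10.38, against 9.55 and 9.08 on the others, and the mean of 7 cartilage markers was 8.91, against 10.08 and 10.18. Surface epithelium markers were higher in EPI than in MES for 5 of 7 genes at E11.5, 4 at E12.5, 4 in OE and 3 in VNO at E14.5. The fractions were less distinct at E14.5: the mean of 8 mesenchyme markers was 11.32 to 11.40 in EPI VNO and 11.31 to 11.36 in MES VNO, and that of 7 olfactory neuron markers was 7.43 to 7.53 in EPI VNO and 7.41 to 7.57 in MES VNO. Dlx5 itself, the check of the genotype, was 10.33, 10.30 and 10.11 in Dlx5 KO arrays and 10.95, 10.98 and 10.97 in WT arrays, a difference of -0.72 ± 0.10 without overlap (adjusted p = 0.117, not called). Dlx5 thus remained bright on the arrays labelled Dlx5 KO, and whether its probes lie in the disrupted part of the gene was not tested. All values refer to bulk tissue, in which fewer cells of a type and less RNA per cell cannot be told apart.

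The promoters of the 2 cadherins that differed most between Dlx5 KO and WT tissue, Cdh26 and Cdh8, are printed from RefSeq (build GRCm38.p6), from 250 bases before the annotated start to 50 after it, 5′ to 3′ along the gene. The last is the most downstream of the annotated Cdh7 promoters, the member promoter with matches to both CACCTG and TAATTA. Capitals mark matches on either strand to CACCTG, the E-box bound by Snail and Zeb repressors of Cdh1, to TAATTA, a core bound by homeodomain proteins, and to the related TAATTG, which was added after the sequences had been seen. The motifs do not overlap one another in these windows.
Cdh26, chr2:178430265-178430564, plus strand: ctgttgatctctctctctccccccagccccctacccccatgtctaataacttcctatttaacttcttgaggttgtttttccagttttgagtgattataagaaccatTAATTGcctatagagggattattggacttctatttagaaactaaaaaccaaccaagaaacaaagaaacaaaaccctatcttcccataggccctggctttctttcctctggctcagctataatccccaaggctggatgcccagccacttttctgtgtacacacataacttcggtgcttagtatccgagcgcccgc
Cdh8, chr8:99416422-99416721, minus strand: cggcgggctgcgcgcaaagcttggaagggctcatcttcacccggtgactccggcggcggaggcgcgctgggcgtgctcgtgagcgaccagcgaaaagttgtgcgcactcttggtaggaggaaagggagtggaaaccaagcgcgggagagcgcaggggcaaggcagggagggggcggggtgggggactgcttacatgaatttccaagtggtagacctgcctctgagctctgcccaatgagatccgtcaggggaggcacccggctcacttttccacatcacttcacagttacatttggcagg
Cdh7, chr1:109983473-109983772, plus strand: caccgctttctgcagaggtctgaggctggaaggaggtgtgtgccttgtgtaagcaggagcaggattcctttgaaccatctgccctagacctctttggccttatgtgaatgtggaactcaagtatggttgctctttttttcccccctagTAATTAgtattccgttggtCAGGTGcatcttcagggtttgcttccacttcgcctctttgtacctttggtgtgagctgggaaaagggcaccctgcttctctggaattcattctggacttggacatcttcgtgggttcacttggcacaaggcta
The promoters searched were 19, of 17 members. CACCTG occurred in 5 of them, from 3 genes (Cdh7, Pcdh7 and Pcdh15), and in 20.212% of all 32851 mouse promoters of this length. TAATTA occurred in 1 (the printed Cdh7 promoter, at position -102 from the start) and in 5.291% of all. TAATTG occurred in 4, of Cdh12, Cdh20, Cdh26 and Pcdh15, and in 8% of all. In the Cdh26 window it lies at position -144, and the Cdh8 window holds none of the 3. A match is a description of the letters and no evidence of binding.

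Groups were compared with limma on the 6 arrays of a pair. A gene was called at a Benjamini-Hochberg adjusted p, over all clusters, of at most 0.05 and a log2 difference of at least 0.9 in size. Counts of members that rose, fell or differed are counts of called members. Of the 50 members, 30 (60%) were called in at least 1 of 13 comparisons and 12 (24%) in at least 3, where 38.9% and 15% of the 23231 clusters measured in both sets of arrays were. The comparisons share arrays. Cdh26 and Pcdhb1 were called in 6 comparisons each, Cdh8, Cdh12 and Pcdhb14 in 5 each. The 20 never called include Cdh2, Cdh3, Cdh4, Cdh5 and Cdh11.

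**Figure D1:**
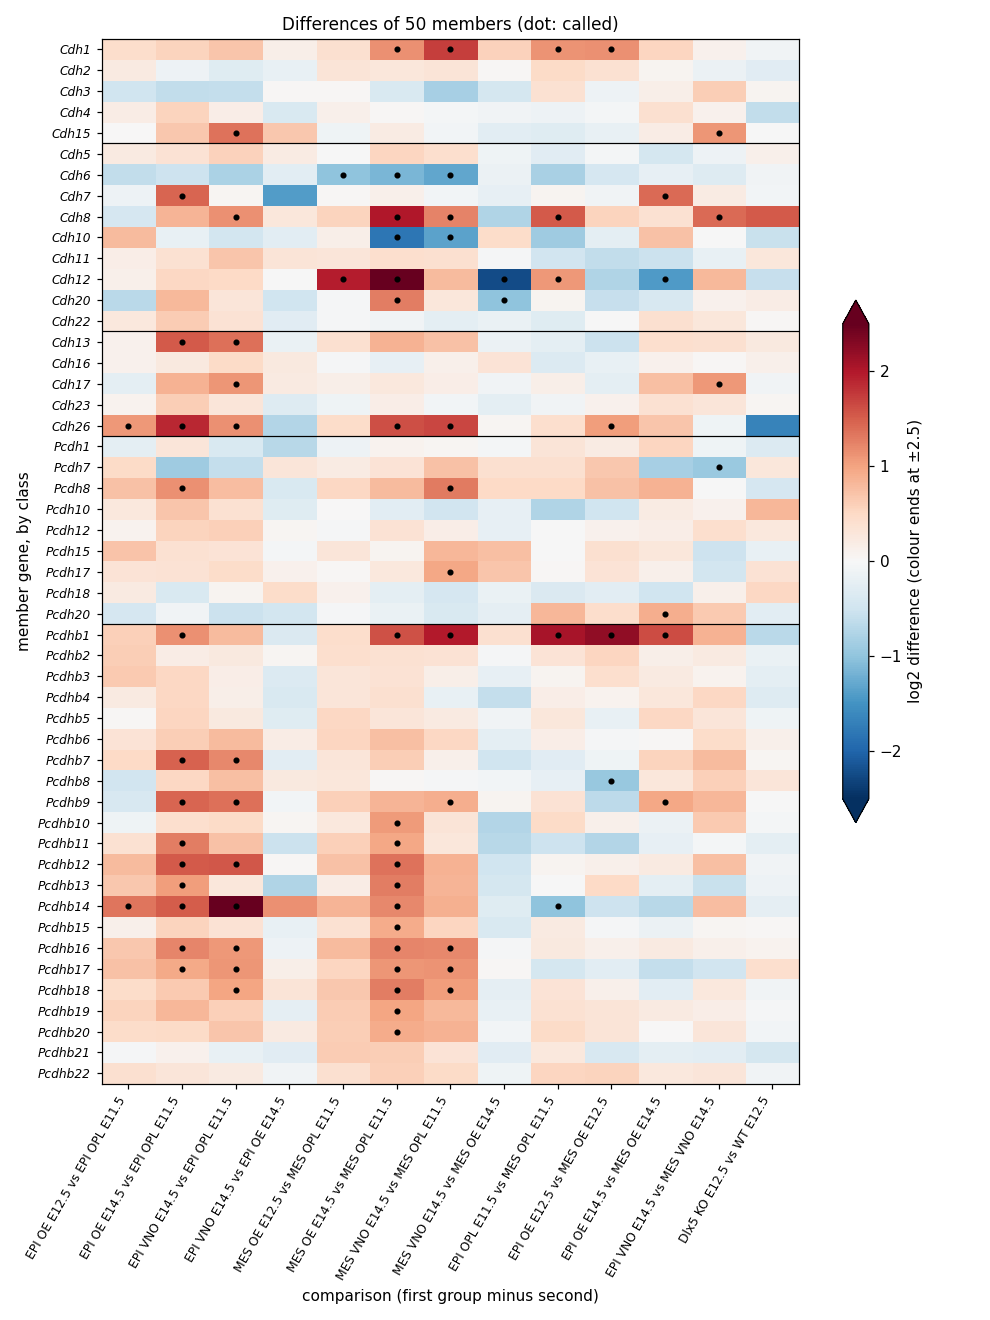
Log2 differences of the 50 members (rows, by class) in the 13 comparisons (columns, first group minus second), with a dot where the member was called. Dots concentrate in the columns that set E14.5 against E11.5 and, among rows, at Cdh26, Cdh8, Cdh12 and Pcdhb1, while the EPI VNO against EPI OE column and the Dlx5 KO column hold none.

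Type I cadherins. E-cadherin, Cdh1 (cluster 6978923), was the type I member called with age in MES. In EPI its level was 9.35, 9.04 and 9.24 at E11.5, 9.56, 9.80 and 9.58 at E12.5, 9.82, 9.65 and 9.85 in OE and 9.92, 9.92 and 9.90 in VNO at E14.5. In MES it was 8.06, 8.08 and 8.13 in OPL at E11.5, 8.52, 8.50 and 8.46 in OE at E12.5, 9.26, 9.23 and 9.23 in OE at E14.5 and 9.80, 9.79 and 9.84 in VNO. The EPI arrays lay above the MES arrays in each of these pairs, and the means came within 0.10 of each other in the VNO.

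In MES, Cdh1 rose by 1.15 ± 0.04 (standard error) in OE (adjusted p = 7.16e-05) and by 1.72 ± 0.05 in VNO (adjusted p = 5.73e-05) at E14.5 relative to E11.5. Between fractions it was higher in EPI by 1.12 ± 0.10 at E11.5 (adjusted p = 0.00255) and 1.15 ± 0.09 at E12.5 (adjusted p = 0.00148). The differences of 0.53 ± 0.09 in OE and 0.10 ± 0.06 in VNO at E14.5 were not called. On the values as deposited the E11.5 and E12.5 differences were 0.60 and 0.87, below the minimum fold, with adjusted p of 0.003 and 0.0022. Surface epithelium markers moved in the same direction in MES: 5 of 7 rose in OE and 6 of 7 in VNO, with a mean of 8.72 to 8.77 on MES OE E14.5 arrays and 9.01 to 9.14 on MES VNO arrays, against 7.42 to 7.52 on MES OPL E11.5 arrays. Their part in the rise of Cdh1 was not tested.

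N-cadherin, Cdh2, was one of the brightest members and was called nowhere. Its level was 10.06, 10.11 and 9.94 in EPI VNO E14.5 and 10.38, 10.16 and 10.50 in EPI OPL E11.5, and in MES it was 10.14, 10.19 and 10.21 in VNO E14.5 and 9.81, 9.85 and 9.92 at E11.5. Its differences between fractions were 0.49 ± 0.11 at E11.5 and 0.38 ± 0.07 at E12.5, with EPI higher and adjusted p of 0.0249 and 0.0139, and 0.07 ± 0.15 and -0.14 ± 0.08 in OE and VNO at E14.5. P-cadherin, Cdh3, known from basal cells of surface epithelia, had differences with age that stayed under the minimum fold. These were -0.49 ± 0.10 in EPI OE E12.5, -0.62 ± 0.10 in EPI OE E14.5 and -0.60 ± 0.08 in EPI VNO E14.5 against E11.5, and -0.38 ± 0.07 and -0.83 ± 0.06 in MES OE and MES VNO E14.5, with 0.03 in MES OE E12.5. Cdh4 (R-cadherin) differed by no more than 0.56 in any time-course comparison made.

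Cdh15, the M-cadherin of muscle cells, was called in EPI VNO comparisons only. Its values were 6.85, 6.97 and 7.02 there, 6.18, 6.35 and 6.29 in EPI OE E14.5, 5.48, 5.63 and 5.68 in EPI OPL E11.5 and 5.79, 5.95 and 5.77 in MES VNO E14.5, without overlap between EPI VNO and any of these groups. It was higher in EPI VNO than in EPI OPL E11.5 by 1.35 ± 0.10 (adjusted p = 0.000314) and than in MES VNO by 1.11 ± 0.09 (adjusted p = 0.000711; 0.67 as deposited, not called). Skeletal muscle markers were higher in the same comparisons in 6 of 6 genes each, with a median of 3.31 and 2.24, and their mean was 8.17 to 8.31 on EPI VNO arrays, 4.94 to 5.04 on EPI OPL E11.5 arrays and 5.85 to 6.02 on MES VNO arrays. Their part in the Cdh15 difference was not tested. In EPI OE E14.5 Cdh15 also rose from E11.5, by 0.68 (adjusted p = 0.00834), under the minimum fold. EPI VNO and EPI OE E14.5 differed in Cdh15 by 0.67 (adjusted p = 0.0922), which was not called.

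**Figure D2:**
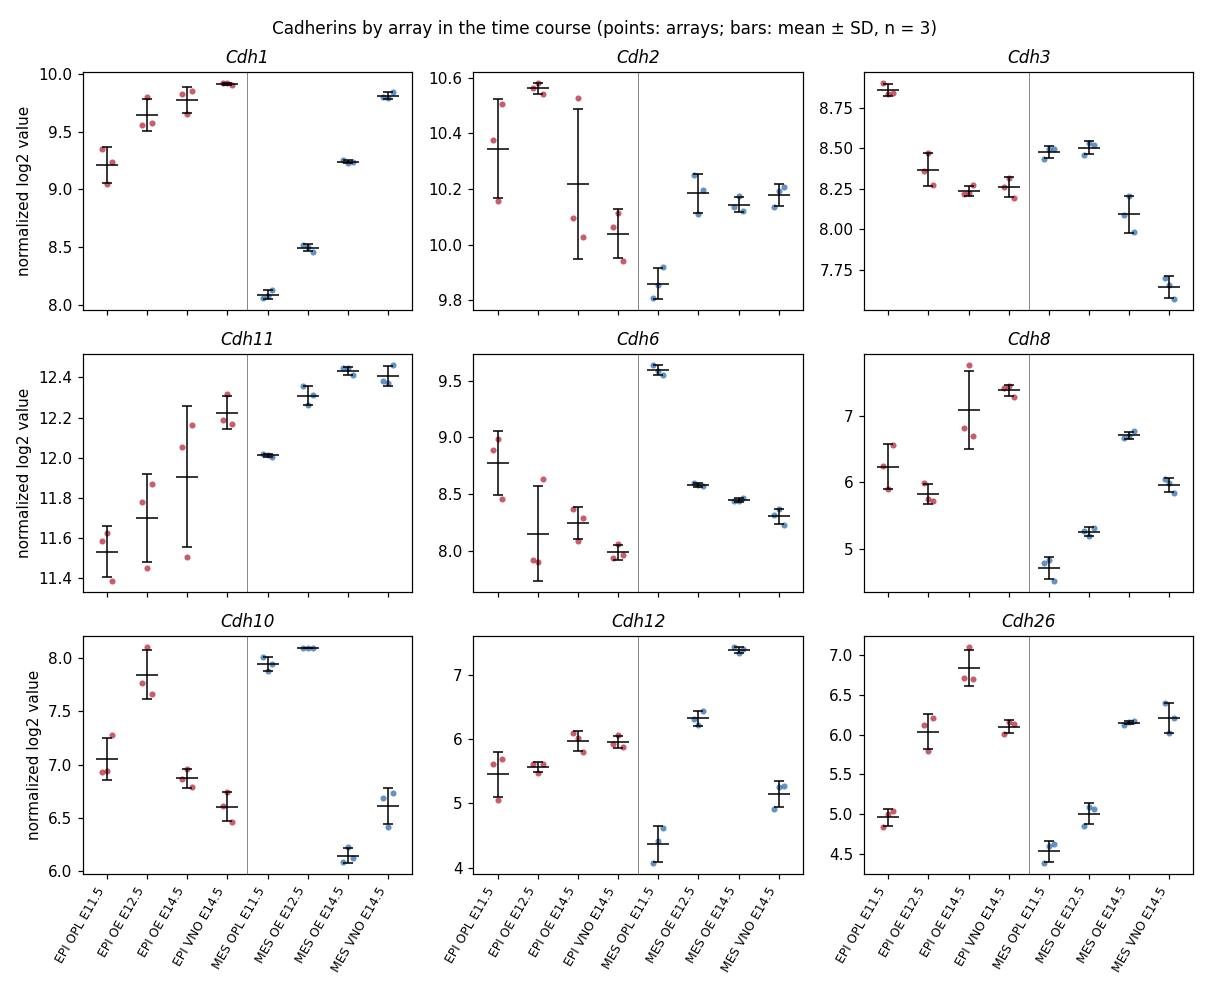
Normalised log2 values of 9 cadherins (panels) on the 24 time-course arrays, with EPI groups in red left of MES groups in blue; points are arrays and bars the mean ± SD of 3. Cdh1 climbed in MES from E11.5 to E14.5, Cdh12 peaked in MES OE E14.5, and Cdh11 stayed above 11.3 on every array.

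Type II cadherins. Of the 9, 5 were called with age in MES, 3 upward and 2 downward, and Cdh12 and Cdh20 were called between MES VNO and MES OE at E14.5. Cdh12 (cluster 6829123), a brain cadherin, had the widest range of the type II members. The 4 EPI groups lay between 5.05 and 6.10. In MES it was 4.07, 4.42 and 4.61 in OPL E11.5, 6.32, 6.21 and 6.43 in OE E12.5 and 7.43, 7.34 and 7.39 in OE E14.5. In MES VNO E14.5 it was 4.92, 5.26 and 5.27. EPI was thus below MES in the OE at E12.5 and E14.5 and above it at E11.5 and in the VNO, without overlap.

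Cdh12 rose in MES OE by 1.96 ± 0.15 at E12.5 (adjusted p = 0.00259) and by 3.02 ± 0.14 at E14.5 (adjusted p = 0.000128). It was lower in MES VNO than in MES OE at E14.5 by -2.24 ± 0.11 (adjusted p = 0.00157) and lower in EPI OE than in MES OE at E14.5 by -1.42 ± 0.11 (adjusted p = 0.00222). At E11.5 it was higher in EPI by 1.08 ± 0.22 (adjusted p = 0.0196), a call that was lost on the deposited values (0.25) and without EPI OPL replicate 1 or 3 or MES OPL replicate 1 or 2. Bone markers moved in the same direction in the MES OE: 4 of 4 were higher at E14.5 than at E11.5 and 3 of 4 were lower in MES VNO than in MES OE, with a mean of 6.91 to 7.18 on MES VNO arrays, 8.92 to 8.96 on MES OE E14.5 arrays and 5.27 to 5.39 on MES OPL E11.5 arrays. At E12.5, where Cdh12 was already called, that mean was 5.46 to 5.66. It was 8.15 to 8.68 on EPI OE E14.5 arrays and 9.14 to 9.16 on EPI VNO arrays, against 5.39 to 5.67 on EPI OPL E11.5 arrays. Cdh12 averaged 5.97 and 5.95 in these EPI OE and EPI VNO groups, with uncalled changes from E11.5 of 0.52 and 0.50. The part of bone content in the Cdh12 differences was not tested.

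Cdh20 followed Cdh12 at E14.5 on a smaller scale. It was 6.83, 6.95 and 6.86 in MES OE E14.5, 5.81, 5.95 and 5.84 in MES VNO E14.5 and 5.58, 5.74 and 5.45 in MES OPL E11.5. It rose in MES OE by 1.29 ± 0.09 (adjusted p = 0.000361) and was lower in MES VNO than in MES OE by -1.01 ± 0.07 (adjusted p = 0.00292).

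Cdh6 and Cdh10 fell in MES. Cdh10 (cluster 6829068) was 8.01, 7.89 and 7.95 in MES OPL E11.5, 8.10, 8.10 and 8.10 in MES OE E12.5, 6.08, 6.22 and 6.12 in MES OE E14.5 and 6.68, 6.41 and 6.73 in MES VNO E14.5. It fell by 1.81 ± 0.06 in MES OE (adjusted p = 4.78e-05) and by 1.34 ± 0.10 in MES VNO (adjusted p = 0.000534) at E14.5, and not at E12.5. Cdh6, which marks neural crest and renal progenitors, lay between 8.23 and 8.60 on the 9 later MES arrays and was 9.64, 9.59 and 9.55 in MES OPL E11.5. It fell by 1.01 ± 0.04, 1.15 ± 0.05 and 1.29 ± 0.06 in MES OE E12.5, OE E14.5 and VNO E14.5, with adjusted p of 0.000492, 8.12e-05 and 0.000146. In EPI, Cdh6 changed in the same direction, by -0.62, -0.53 and -0.79 in OE E12.5, OE E14.5 and VNO E14.5, none of them called. The EPI change to E14.5 minus the MES change was 0.62 in OE and 0.50 in VNO, under the minimum fold.

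Cdh8 (cluster 6984684), an axon and synapse cadherin, rose in both fractions. In EPI it was 6.25, 5.89 and 6.56 in OPL E11.5, 6.82, 7.76 and 6.69 in OE E14.5 and 7.41, 7.45 and 7.29 in VNO E14.5, and the highest OE value was that of replicate 2, on which the neuron markers were highest. In MES it was 4.78, 4.83 and 4.52 in OPL E11.5, 6.66, 6.70 and 6.76 in OE E14.5 and 6.04, 5.99 and 5.84 in VNO E14.5. The changes with age were 2.00 ± 0.10 in MES OE, 1.25 ± 0.11 in MES VNO and 1.15 ± 0.18 in EPI VNO (adjusted p = 0.00013, 0.000819 and 0.00332), while that of 0.86 ± 0.33 in EPI OE was not called. Between fractions it was higher in EPI by 1.53 ± 0.19 at E11.5 (0.71 as deposited, not called) and by 1.42 ± 0.09 in the VNO (adjusted p = 0.00562 and 0.000434). In MES, 6 of 7 neuron markers also rose in OE and in VNO; the mean was 9.31 to 9.38 on MES OE E14.5 arrays and 9.56 to 9.61 on MES VNO arrays, against 7.70 to 7.78 on MES OPL E11.5 arrays. In the EPI against MES comparison in the VNO, where Cdh8 was higher in EPI, 3 of 7 neuron markers were lower in EPI and none was higher. The part of neuron content in the rise with age was not tested.

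Cdh7, known from neural crest and motor neurons, was high in a lone group. Its values were 5.94, 6.61 and 5.34 in EPI OE E14.5, and all the other 21 time-course arrays lay between 4.25 and 4.71. It was higher in EPI OE E14.5 than in EPI OPL E11.5 by 1.46 ± 0.32 (adjusted p = 0.017) and than in MES OE E14.5 by 1.41 ± 0.31 (adjusted p = 0.0199; 0.71 as deposited, not called). Without EPI OE E14.5 replicate 2 these were 1.14 and 1.09, with adjusted p of 0.0207 and 0.0188. The first call was lost without EPI OPL E11.5 replicate 1 or 2, and the second without EPI OE E14.5 replicate 1 or any of the MES OE E14.5 arrays. Cdh11, the osteoblast cadherin of mesenchyme, and Cdh5, the cadherin of endothelium, were not called in any comparison. Cdh11 lay between 11.38 and 12.46 on all 24 arrays and was lower in EPI than in MES at E11.5 by -0.48 ± 0.09 (adjusted p = 0.015). The Cdh5 differences with age reached 0.57 ± 0.09 in EPI VNO E14.5 (adjusted p = 0.00421), a comparison in which 4 of 8 endothelium markers rose.

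Other cadherins. Cdh26 (cluster 6884027), a cadherin of epithelia, rose with age in both fractions and was called in 5 age comparisons. In EPI it was 4.83, 5.01 and 5.04 in OPL E11.5, 6.12, 5.79 and 6.20 in OE E12.5, 6.71, 7.10 and 6.70 in OE E14.5 and 6.003, 6.16 and 6.13 in VNO E14.5. In MES it was 4.38, 4.60 and 4.62, then 4.85, 5.09 and 5.06, then 6.13, 6.15 and 6.17 in OE and 6.39, 6.02 and 6.21 in VNO. The EPI arrays lay above the MES arrays at E11.5, at E12.5 and in the OE at E14.5, and the fractions overlapped in the VNO.

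Relative to E11.5, Cdh26 rose in EPI by 1.08 ± 0.14 in OE E12.5, 1.88 ± 0.15 in OE E14.5 and 1.14 ± 0.10 in VNO E14.5, with adjusted p of 0.012, 0.00131 and 0.000512. In MES it rose by 1.62 ± 0.08 in OE and 1.67 ± 0.12 in VNO at E14.5, with adjusted p of 0.000128 and 0.000459. It was higher in EPI than in MES at E12.5 by 1.04 ± 0.13 (adjusted p = 0.00582). The E12.5 call in EPI was lost without EPI OE E12.5 replicate 1, with a difference of 1.04 and an adjusted p of 0.0532.

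Cdh13 (T-cadherin, anchored to the membrane by a lipid) was called with age in EPI, and Cdh17 in EPI VNO. In MES OE and MES VNO E14.5 Cdh13 also rose from E11.5, by 0.87 and 0.73, under the minimum fold. Cdh13 was 7.17, 7.70 and 7.15 in EPI OE E14.5, 7.26, 7.23 and 7.06 in EPI VNO E14.5 and 5.97, 5.83 and 5.59 in EPI OPL E11.5, so that it rose by 1.54 ± 0.20 and 1.38 ± 0.13 (adjusted p = 0.00367 and 0.000623). Mesenchyme markers rose beside it, 5 of 8 in EPI OE and 6 of 8 in EPI VNO, with a mean of 11.02 to 11.31 and 11.32 to 11.40 against 9.35 to 9.63 at E11.5, and their part was not tested. Cdh17, the cadherin of liver and intestine, was among the dimmest members. It was 4.57, 4.58 and 4.57 in EPI VNO E14.5, 3.41, 3.51 and 3.48 in EPI OPL E11.5 and 3.30, 3.61 and 3.57 in MES VNO E14.5. It was higher in EPI VNO by 1.11 ± 0.07 and by 1.08 ± 0.10, with adjusted p of 0.000262 and 0.000992. The difference from MES VNO was 0.43 on the deposited and 0.79 on the median-centred values, not called on either. In EPI OE E14.5 Cdh17 also rose from E11.5, by 0.88 (adjusted p = 0.00336), under the minimum fold. EPI VNO and EPI OE E14.5 differed in Cdh17 by 0.23 (adjusted p = 0.322). Cdh16 and Cdh23 were not called.

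Non-clustered protocadherins. These 9 genes were called in 5 of 117 pairs of gene and comparison (4.27%), where 7.21% of all pairs of cluster and comparison were called. Pcdh8, an activity-regulated protocadherin of neurons, was 7.61, 7.90 and 7.24 in EPI OE E14.5 and 6.40, 6.33 and 6.58 in EPI OPL E11.5; in MES VNO E14.5 it was 7.19, 7.24 and 7.24, against 5.76, 6.11 and 5.93 in MES OPL E11.5. It rose by 1.15 ± 0.19 and by 1.29 ± 0.10 (adjusted p = 0.00749 and 0.000562). Pcdh17 rose in MES VNO by 0.96 ± 0.08 (adjusted p = 0.000579), Pcdh20 was higher in EPI OE than in MES OE at E14.5 by 0.91 ± 0.16 (adjusted p = 0.00995; 0.31 as deposited, not called), and Pcdh7 was lower in EPI VNO than in MES VNO by -0.93 ± 0.10 (adjusted p = 0.00135). The Pcdh20 and Pcdh7 differences were close to the minimum fold: the first was lost without EPI OE E14.5 replicate 2 or 3 or MES OE E14.5 replicate 1 or 2, and the second without EPI VNO replicate 1 or 3. Both calls were also lost on the median-centred values, where the differences were 0.81 and -0.55. Pcdh18, among the brightest members, was not called.

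The change of Pcdh7 with age differed between the fractions. In EPI it was 9.62, 9.32 and 9.68 at E11.5, 8.72, 8.43 and 8.78 in OE E14.5 and 8.84, 9.11 and 8.87 in VNO E14.5. In MES it was 9.21, 9.16 and 9.05 at E11.5, 9.36, 9.51 and 9.57 in OE E14.5 and 9.80, 9.89 and 9.93 in VNO E14.5. In OE E12.5 it averaged 10.02 in EPI, its highest group, and 9.34 in MES. That difference was 0.68 (adjusted p = 0.00363), under the minimum fold. No change within a fraction was called. The difference between the changes to E14.5 was -1.24 ± 0.18 for OE and -1.33 ± 0.15 for VNO. In limma on the 12 arrays of both fractions and ages, the adjusted p was 0.0012 and 0.000159. On the deposited values these differences were -0.85 and -0.76, under the minimum fold.

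Clustered beta protocadherins. All the changes with age that were called in the 22 Pcdhb genes were rises, and the lowest of the uncalled values was -0.47, in EPI OE E12.5. At E14.5 relative to E11.5, 9 rose in EPI OE, 7 in EPI VNO, 12 in MES OE and 5 in MES VNO, where 7.08%, 8.04%, 4.47% and 5.19% of all clusters were higher. The median of their 22 values was 6.65, 6.66 and 6.72 on the MES OE E14.5 arrays, against 5.73, 5.64 and 5.75 on the MES OPL E11.5 arrays, and 6.70, 6.55 and 6.72 on the EPI OE E14.5 arrays, against 5.82, 6.06 and 5.95 on the EPI OPL E11.5 arrays. The groups did not overlap in either fraction. Without MES VNO replicate 2, 9 rather than 5 rose in MES VNO, and on the deposited values 13 rather than 7 rose in EPI VNO.

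The median log2 change of the 22 genes was 0.93 in MES OE, 0.53 in MES VNO, 0.64 in EPI OE and 0.72 in EPI VNO, where the median of all clusters in these comparisons was -0.03, -0.02, 0.12 and 0.06. These medians were above 0 on the deposited and the median-centred values too. Marker lists rose in the same comparisons. Of 7 neuron markers 6 rose in MES OE, 6 in MES VNO, 4 in EPI OE and 1 in EPI VNO, where 1 also fell, with means of 9.31 to 9.38, 9.56 to 9.61, 9.08 to 10.38 and 8.94 to 9.04, against 7.70 to 7.78 in MES OPL E11.5 and 8.68 to 8.97 in EPI OPL E11.5. Of 7 surface epithelium markers 5 rose in MES OE and 6 in MES VNO, and of 8 mesenchyme markers 5 rose in EPI OE and 6 in EPI VNO. Their part in the change of the Pcdhb genes was not tested. Of the 9 genes that rose in EPI OE and the 12 that rose in MES OE, comparisons that share no array, 7 were the same: Pcdhb1, Pcdhb11, Pcdhb12, Pcdhb13, Pcdhb14, Pcdhb16 and Pcdhb17. These were 77.8% of the first list and 58.3% of the second. Over all clusters, 35.6% of those higher in EPI OE were also higher in MES OE, and 56.4% of those higher in MES OE were also higher in EPI OE. The call of Pcdhb17 in EPI OE was lost on the median-centred values and without EPI OPL E11.5 replicate 1 or 3 or EPI OE E14.5 replicate 1 or 2, with adjusted p of 0.059 to 0.111. Over the 24 arrays the pairs of Pcdhb genes had a median r of 0.522, with 224 of 231 pairs above 0, against 0.305 for all pairs of members. Near-identical sequences of these genes may share probe signal, and the arrays share tissue groups, so the pairs are no independent measurements.

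In MES OE the called genes, apart from Pcdhb1, formed a run. In the order of the genes along the chromosome, all 11 of Pcdhb10 to Pcdhb20 were called, with rises of 0.92 to 1.37. Of the other 11 only Pcdhb1 was called, and the medians were 1.10 and 0.59. Next to the run, Pcdhb9 rose by 0.84 and Pcdhb21 by 0.62 (adjusted p = 0.00964 and 0.0106), while Pcdhb8 changed by 0.04. The edges of the run are thus set by the minimum fold. The run was chosen after its values had been seen. The run is 11 of the 22 Pcdhb genes. It held 6 of the 9 genes that rose in EPI OE, 5 of 7 in EPI VNO and 3 of 5 in MES VNO. Of the 11 other genes, 8, 5 and 6 exceeded the run's lowest rise in EPI OE, EPI VNO and MES VNO, against 1 in MES OE. MES VNO shares its E11.5 arrays with MES OE. The run's count in MES VNO was 7 without MES VNO replicate 2 and 5 without MES OPL E11.5 replicate 1. On the deposited values the run's count in EPI VNO was 8. On the deposited and on the median-centred values 9 of the 11 were called in MES OE, and 9 to 11 when any of the 6 arrays was left out. Pcdhb11 has a further cluster on the array, which showed 0.29 ± 0.20 in MES OE, against 0.97 ± 0.05 for the brighter one.

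**Figure D3:**
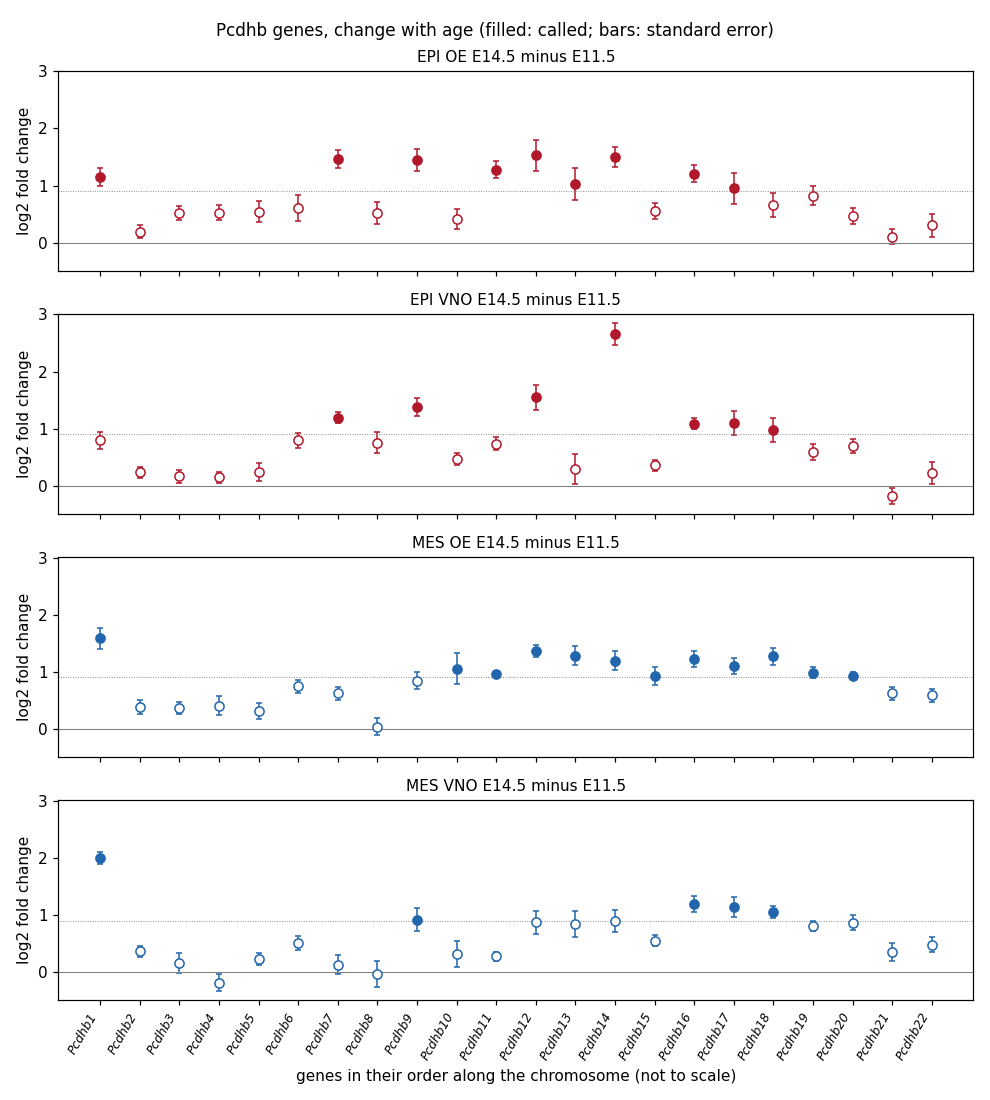
Log2 change of the 22 Pcdhb genes, in their order along the chromosome, at E14.5 relative to E11.5 in EPI OE, EPI VNO, MES OE and MES VNO (panels, top to bottom); bars are standard errors, filled points are called genes and the dotted line is the minimum fold of 0.9. In MES OE the filled points are Pcdhb1 and the unbroken run Pcdhb10 to Pcdhb20.

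Pcdhb1 (cluster 6860160), the first of the Pcdhb genes in order, had the widest range of all 50 members. The range starts at 2.80 in MES OPL E11.5, the dimmest level of any member, at percentile 5.2 of all clusters. Its range and its MES differences thus rest in part on very dim values. It was 4.87 on average in EPI OPL E11.5, 5.47 in EPI OE E12.5, 6.02 in EPI OE E14.5 and 5.67 in EPI VNO E14.5, and 2.80, 3.25, 4.39 and 4.79 in the corresponding MES groups. EPI lay above MES on every array of each pair. It was higher in EPI by 2.07 ± 0.17 at E11.5, 2.22 ± 0.21 at E12.5 and 1.63 ± 0.17 in OE at E14.5 (adjusted p = 0.00215, 0.00254 and 0.00369). With age it rose by 1.59 ± 0.18 in MES OE, 1.99 ± 0.11 in MES VNO and 1.15 ± 0.16 in EPI OE (adjusted p = 0.00207, 0.000184 and 0.00494).

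Pcdhb14 had the largest rise of the family, from a level in EPI OPL E11.5 among the dimmest of the members. It was 3.25, 3.37 and 3.74 in EPI OPL E11.5, 4.72, 4.58 and 5.07 in EPI OE E12.5, 5.07, 4.74 and 5.07 in EPI OE E14.5 and 6.06, 6.42 and 5.83 in EPI VNO E14.5. The rises in EPI were 1.34 ± 0.19 at E12.5, 1.51 ± 0.18 in OE and 2.65 ± 0.20 in VNO at E14.5 (adjusted p = 0.0138, 0.00302 and 0.000366). The E12.5 call was lost without EPI OE E12.5 replicate 1 (adjusted p = 0.0533). At E11.5 Pcdhb14 was lower in EPI than in MES by -0.999 ± 0.19 (adjusted p = 0.0163). That call was lost without EPI OPL replicate 1 or MES OPL replicate 1 or 3. Pcdhb8 and Pcdhb9 also differed between fractions. Pcdhb9 was higher in EPI OE E14.5 by 0.97 ± 0.18 (adjusted p = 0.0117). This call was lost on the deposited values (0.19), on the median-centred values (0.68) and without MES OE E14.5 replicate 1 (0.82). Pcdhb8 was lower in EPI OE E12.5 by -0.95 ± 0.20 (adjusted p = 0.0237), which was lost without EPI OE E12.5 replicate 2 or any MES OE E12.5 array.

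Members called by comparison. These counts are read beside the share of all 23238 clusters called in the same direction. In EPI OE E12.5 against EPI OPL E11.5, 2 members rose (Cdh26 and Pcdhb14) and none fell, where 1.61% of all clusters were higher and 2.16% lower. On the deposited values 20 members rose, and without EPI OE E12.5 replicate 1 none did. In EPI OE E14.5 against E11.5, 13 rose and none fell (7.08% and 9.74% of clusters), and 11 rose without replicate 2 of EPI OE E14.5. In EPI VNO E14.5 against E11.5, 12 rose and none fell (8.04% and 9.61%), and 21 rose on the deposited values. These comparisons share their E11.5 arrays. Of the members, 26% rose in OE and 24% in VNO at E14.5. No member was called as lower in EPI with age in any of the 3, although 1 was in EPI OE E14.5 on the median-centred values. Pcdh7 fell there by -0.897 on the main values (adjusted p = 0.00907), just under the minimum fold. With no minimum fold 2, 2 and 6 members were lower in EPI OE E12.5, EPI OE E14.5 and EPI VNO E14.5.

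In MES OE E12.5 against MES OPL E11.5, Cdh12 rose and Cdh6 fell (0.925% of clusters higher, 0.237% lower). In MES OE E14.5 against E11.5, 17 members rose and 2 fell (4.47% and 2.59%). In MES VNO E14.5 against E11.5, 10 rose and 2 fell (5.19% and 3.32%). The falling members were Cdh6 and Cdh10 each time. The shares of members that rose, 34% and 20%, were above those of all clusters, and 12 of the 17 and 7 of the 10 were protocadherins (70.6% and 70%), which are 62% of the members. The median difference of the 50 members from E11.5 was 0.56 in EPI OE, 0.48 in EPI VNO, 0.48 in MES OE and 0.35 in MES VNO at E14.5, beside the medians of all clusters given above.

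Between the organs at E14.5, MES VNO was lower than MES OE for Cdh12 and Cdh20, with no member higher (0.796% of clusters lower, 0.572% higher). In EPI VNO against EPI OE, limma called 0 members and 0% of clusters in either direction; 13 members and 3585 clusters had an unadjusted p under 0.05. Rank Products and a fit over all time-course groups called 2 members each. The largest differences were -1.41 ± 0.32 for Cdh7 and 1.15 ± 0.19 for Pcdhb14, with adjusted p of 0.175 and 0.103.

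Between fractions, EPI was higher than MES for 4 members and lower for 1 at E11.5 (3.42% and 2% of clusters). At E12.5 the counts were 3 and 1 (2.88% and 2.16%), in OE at E14.5 4 and 1 (5.21% and 8.31%), and in VNO at E14.5 3 and 1 (5.67% and 7.8%). These splits depended on the scaling. On the deposited values 1 member was higher and 12 lower in EPI at E11.5, 1 and 6 in OE at E14.5 and 1 and 4 in VNO at E14.5. The median of all clusters differed there by -0.66, -0.33 and -0.24. It differed by 0.54 between E12.5 and E11.5 in EPI. On median-centred values the splits were 4 and 2 at E11.5 and 3 and 2 in OE at E14.5. At E11.5 the count of members called was 3 rather than 5 without EPI OPL replicate 1 or MES OPL replicate 1, and in OE at E14.5 it was 2 rather than 5 without MES OE replicate 1 and 3 without replicate 2.

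The changes with age were set against each other between the fractions in 1 model with a fraction by age term. For OE, 6 members differed (12.2% of clusters did): Cdh7, Cdh10 and Pcdh10 changed more upward in EPI, and Cdh8, Cdh12 and Pcdh7 more upward in MES. For VNO, 7 differed (15.3% of clusters): Cdh15, Cdh17, Pcdhb7 and Pcdhb14 changed more upward in EPI, and Cdh1, Pcdh7 and Pcdhb1 more upward in MES. On the deposited values 6 members changed more upward in EPI and 1 in MES for OE, and 11 and 1 for VNO. On median-centred values the split for OE was 4 and 2. For neither organ was the share of members that differed higher than that of all clusters.

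Partners of the cadherins. The lists were 10 catenins and linkers, 11 desmosomal genes, 5 cadherin-related genes, 5 repressors of Cdh1, 3 nectins and 2 Celsr genes with a cluster of their own. Of the desmosomal genes, which fasten epithelial cells to one another, 6 of 11 rose with age in EPI OE, 6 in EPI VNO, 5 in MES OE and 6 in MES VNO, and none fell, where 7.08%, 8.04%, 4.47% and 5.19% of all clusters were higher. In MES, 5 and 6 of 7 surface epithelium markers rose beside them, and their part was not tested. Dsc3 rose by 2.43 in EPI OE and 2.89 in EPI VNO (adjusted p = 0.0255 and 0.000472), and Dsg3 by 1.80 and 1.95. Between fractions the desmosomal gene Pkp2 was higher in EPI by 1.96 at E11.5 and 1.60 at E12.5. Of the catenins, which link cadherins to the cytoskeleton, 2 of 10 rose in EPI OE E14.5 (7.08% of all clusters), Ctnna2 by 1.27 and Jup by 1.02, and Ctnnb1 was called in no comparison.

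Of the repressors of Cdh1, Twist1, Snai1 and Zeb2 were lower in EPI than in MES at E12.5 by -1.10, -1.21 and -1.45 (adjusted p = 0.00838, 0.0133 and 0.00761), a comparison in which Cdh1 was higher in EPI. None of the 5 was called between the fractions at E11.5 or in the VNO. In MES, where Cdh1 rose, Zeb2 rose by 1.46 in OE and Twist1 fell by 1.03 in VNO. Of the cadherin-related genes, Cdhr1, known from photoreceptors and mitral cells, was higher in EPI than in MES by 2.40 at E11.5 and 1.37 at E12.5, and Clstn2 rose in MES by 2.09 in OE and 2.40 in VNO. Of the 3 nectins, Nectin4 rose in EPI by 0.98 in OE and 1.15 in VNO. Celsr1, a planar polarity cadherin, rose in MES by 1.15 in OE and 1.48 in VNO, and Celsr3 was higher in EPI than in MES by 1.59 at E12.5.

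Dlx5 KO against WT. The comparison asks which members differ between E12.5 nasal tissue labelled Dlx5 KO and WT tissue. No member was called by limma in either direction, where 0% of 23332 clusters were higher and 0.00429% lower. Of the members, 15 had an unadjusted p under 0.05, as had 3323 clusters, and Rank Products called Cdh26 and Cdh8. Cdh26 was 6.54, 7.42 and 7.81 in Dlx5 KO arrays and 8.75, 9.21 and 8.84 in WT arrays. Cdh8 was 9.27, 9.16 and 9.74 in Dlx5 KO arrays and 7.71, 7.99 and 7.90 in WT arrays. For both genes the groups did not overlap, with Dlx5 KO below WT for Cdh26 and above it for Cdh8.

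The difference was -1.68 ± 0.32 for Cdh26 (95% interval -2.45 to -0.90, adjusted p = 0.167) and 1.53 ± 0.17 for Cdh8 (1.12 to 1.94, adjusted p = 0.0958). With clusters below the median left out, Cdh8 passed at an adjusted p of 0.0393. Its mean was 7.86 in WT, below the deposited WT array medians of 8.55 to 8.59, and 9.39 in Dlx5 KO. Cdh8 thus stayed in that filter through its Dlx5 KO level, so the lower adjusted p is no separate evidence for the difference. Pcdh10, a protocadherin of axon tracts, was 10.86, 10.11 and 9.95 in Dlx5 KO arrays and 9.36, 9.58 and 9.47 in WT arrays, a difference of 0.84 ± 0.24, and of 0.56 without replicate 1 of Dlx5 KO. Cdh4 was 8.60, 8.79 and 8.91 in Dlx5 KO arrays and 9.25, 9.49 and 9.43 in WT arrays, a difference of -0.62 ± 0.12. Of the 5 largest differences in each direction, the others were -0.67 for Pcdhb1, -0.57 for Cdh12, -0.55 for Cdh10, 0.52 for Pcdh18, 0.42 for Pcdhb17 and 0.36 for Pcdh17, with adjusted p of 0.144 to 0.326. Those of Pcdhb21 and Pcdh8, -0.44 and -0.42, were larger in size than the last 2 of these (adjusted p = 0.349 and 0.45). Cdh1 differed by -0.09 ± 0.15 and Cdh2 by -0.27 ± 0.13.

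Cell type markers differed between the same arrays. The mean of 7 neuron markers was 10.52, 11.18 and 11.24 in Dlx5 KO arrays and 11.61, 11.81 and 11.72 in WT arrays, that of 7 olfactory neuron markers 8.04, 8.70 and 8.67 in Dlx5 KO against 9.04, 9.19 and 9.08 in WT, and that of 8 mesenchyme markers 11.27, 11.32 and 10.92 in Dlx5 KO against 10.62, 10.58 and 10.72 in WT. The array with the lowest Cdh26, replicate 1 of Dlx5 KO, was also the lowest for both neuron lists. No gene of these lists was called, and their part in the differences of the members was not tested. The mean of 7 surface epithelium markers overlapped between the genotypes, at 9.93 to 10.68 in Dlx5 KO and 10.26 to 10.36 in WT. The means of the endothelium and cartilage markers overlapped too. That of 5 ensheathing glia markers did not, at 8.71 to 9.11 in Dlx5 KO and 9.37 to 9.59 in WT.

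**Figure D4:**
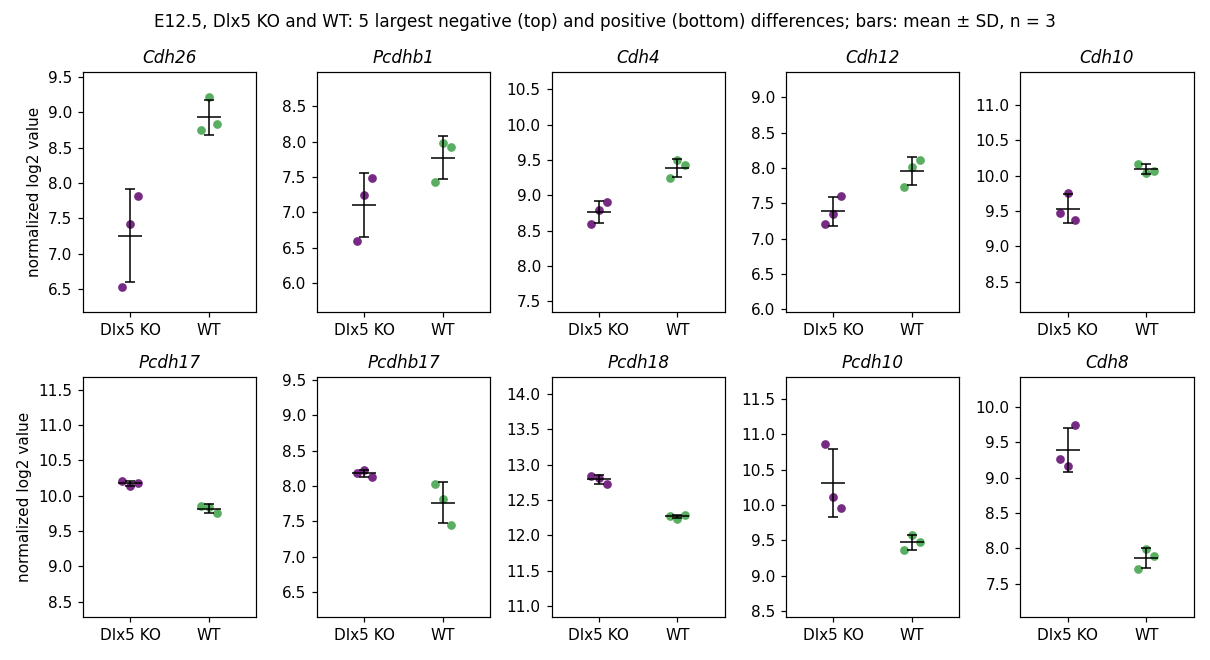
Normalised log2 values of the members with the 5 largest differences in each direction in the E12.5 arrays, Dlx5 KO left of WT, with the negative differences on top; points are arrays and bars the mean ± SD of 3. Cdh26 lies between 6.54 and 7.81 in Dlx5 KO and above 8.7 in WT, and Cdh8 shows the reverse order.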

How the data were processed

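RNA of epithelial and mesenchymal fractions and of Dlx5 KO and WT nasal tissue was measured on 30 Affymetrix exon arrays. The authors had deposited log2 values made with RMA (version not given in the sources used here; build mm9 in the submitters' notes), 1 per transcript cluster, with the time course and the Dlx5 arrays normalized apart. Of 23339 clusters, 23238 had values in the time course and 23332 in the Dlx5 set. The array's gene table gave 14996 clusters 1 symbol, 1019 several and 7324 none. Because deposited array medians differed between groups, values were quantile normalized within each set; the deposited values are an alternative.

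Each pair of groups was fitted on its 6 arrays in R 4.3.3 with limma 3.58.1 (lmFit, eBayes), 2-sided. P-values were adjusted by Benjamini and Hochberg's method across every cluster, and calls needed 0.05 or less together with a log2 difference of 0.9 or more in either direction. The interaction model took 12 arrays. Scripts were tested on simulated data. Replicates are pools, so p-values measure the spread between pools, and 3 arrays a group limit the precision. Sequences were read with Python 3.11.15. Alternatives were other scalings, Rank Products, other filters, priors and cluster choices, a replicate block and leaving out each array.

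Named genes were, for each comparison, the 6 called members of largest rise and fall with arrays that did not overlap, the type I cadherins, members called in at least 3 comparisons, Cdh8, Cdh12 and Cdh26, the 5 largest differences in each direction for Dlx5 KO against WT, and called genes of each list. The members, lists and rule were chosen with earlier results of these data known.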

Additional observations from a re-analysis of the deposited data

Results flagged for a closer look

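The change from E11.5 to E14.5 differed between the fractions for 13 gene and organ pairs, tested with a fraction by age term in limma over the 12 arrays of an organ (adjusted p of at most 0.05 and a difference of at least 0.9). These are 6 of the 50 members for the OE and 7 for the VNO, where 12.2% and 15.3% of all clusters differed. Members thus differed no more often than clusters at large. Values are the EPI change minus the MES change on the log2 scale.

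For the OE, the difference was 1.62 for Cdh10, with changes of -0.18 in EPI and -1.81 in MES (adjusted p = 0.000158). It was -2.50 for Cdh12, with 0.52 in EPI and 3.02 in MES (adjusted p = 0.000268). Cdh7 had 1.33 (1.46 in EPI and 0.13 in MES, adjusted p = 0.0205), and 1.01 without EPI OE E14.5 replicate 2. Cdh8 had -1.14 (0.86 in EPI and 2.00 in MES, adjusted p = 0.0419), a call lost when 1 of 10 of the 12 arrays was left out and kept without EPI OPL E11.5 replicate 2 or EPI OE E14.5 replicate 2. Pcdh10 had 0.96 (0.69 in EPI and -0.27 in MES, adjusted p = 0.00226), and 0.898 without EPI OPL E11.5 replicate 1 and 0.85 without EPI OE E14.5 replicate 2, both under the minimum fold. Pcdh7 had -1.24 (-0.90 in EPI and 0.34 in MES, adjusted p = 0.0012).

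For the VNO, Cdh1 had -1.02 (0.70 in EPI and 1.72 in MES, adjusted p = 0.000102), Cdh15 1.42 (1.35 in EPI and -0.07 in MES, adjusted p = 4.38e-05) and Cdh17 0.93 (1.11 in EPI and 0.17 in MES, adjusted p = 0.00044). Pcdh7 had -1.33 (-0.60 in EPI and 0.73 in MES, adjusted p = 0.000159). Among the beta protocadherins, Pcdhb1 had -1.19 (0.80 in EPI and 1.99 in MES, adjusted p = 0.00102), Pcdhb14 1.77 (2.65 in EPI and 0.88 in MES, adjusted p = 0.00115) and Pcdhb7 1.07 (1.19 in EPI and 0.13 in MES, adjusted p = 0.00202). On the deposited values the differences of Pcdh7 were -0.85 for OE and -0.76 for VNO, that of Cdh8 -0.82 and that of Cdh1 -0.44, all under the minimum fold. On the median-centred values those of Cdh1 and Cdh17 were -0.75 and 0.73 and that of Cdh8 had an adjusted p of 0.0887, and these calls were lost too. The call of Cdh17 was also lost without MES OPL E11.5 replicate 2 (0.88) or MES VNO replicate 1 (0.84), and that of Pcdhb7 without MES VNO replicate 2 (0.88).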

How the results depend on the processing

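Counts of members called moved with the scaling, the filter and the minimum fold. On the deposited values they were 20 (main 2) for EPI OE E12.5 and 21 (main 12) for EPI VNO E14.5 against EPI OPL E11.5, 13 (main 5) for EPI against MES at E11.5 and 12 (main 7) for the fraction by age term in the VNO. With clusters above the median only, which leaves 13 to 24 of the 50 members to test, they were 0, 2 and 1 for EPI OE E12.5, OE E14.5 and VNO E14.5 against E11.5, 1, 3 and 4 for the same in MES, 0 for MES VNO against MES OE, 1, 1, 0 and 1 for EPI against MES at E11.5, E12.5, OE E14.5 and VNO E14.5, and 1 for Dlx5 KO against WT. With no minimum fold they were 10, 27 and 37 in EPI, 19, 36 and 32 in MES, 11 for MES VNO against MES OE, and 19, 17, 16 and 22 for EPI against MES. For EPI VNO against EPI OE, 1 fit over all time-course groups and Rank Products gave 2 each, and Rank Products gave 2 for Dlx5 KO against WT. The replicate numbers did not pair the samples (r of -0.18 to 0.28, no comparison with every pair over 0.1); with a replicate block 0 members were called in MES VNO against MES OE (main 2), where Cdh12 had an adjusted p of 0.0606 and Cdh20 of 0.0753, and the calls of Pcdhb9 in MES VNO and Cdh8 in the OE term were lost (adjusted p = 0.0598 and 0.0676), and no other named call.

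Leaving out 1 array gave 0 to 3, 11 to 15 and 11 to 13 members in EPI with age, 0 to 0 for EPI VNO against EPI OE, 2 to 2, 17 to 20 and 12 to 16 in MES with age, 2 to 3 for MES VNO against MES OE, 3 to 6, 3 to 4, 2 to 6 and 3 to 6 for EPI against MES, 0 to 0 for Dlx5 KO against WT, and 4 to 6 and 7 to 10 for the fraction by age term. Of single genes' values over these settings 915 kept their call and direction, 50 lost the call and 13, all of type I cadherins not called, changed sign.

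Signs turned, against the main value, for these uncalled genes. On the deposited values Cdh2 was -0.0066 and Cdh4 -0.022 in MES OE E14.5, Cdh2 was -0.0033 in MES VNO, and EPI against MES was -0.18 for Cdh3 at E11.5, -0.47 for Cdh15 (adjusted p = 0.018), -0.017 for Cdh2 and -0.10 for Cdh3 in OE E14.5, and -0.16 for Cdh4 in VNO. On median-centred values Cdh2 was -0.15 in EPI OE E12.5, -0.0072 in MES OE E14.5, -0.014 in MES VNO, -0.0070 in MES VNO against MES OE and 0.29 in EPI against MES VNO (adjusted p = 0.0286), Cdh4 was -0.022 in MES OE E14.5 and Cdh3 -0.0065 in EPI VNO against EPI OE. With 1 array left out the ranges were -0.084 to 0.13 for Cdh15 in EPI OE E12.5, -0.0081 to 0.054 for Cdh3 in EPI VNO against EPI OE, -0.042 to 0.068 for Cdh4 in MES OE E14.5, -0.16 to 0.0057 for Cdh4 in MES VNO, -0.094 to 0.011 for Cdh4 in EPI against MES at E12.5, -0.081 to 0.17 for Cdh2 in EPI against MES OE E14.5, and, for Dlx5 KO against WT, -0.17 to 0.066 for Cdh1, -0.073 to 0.044 for Cdh15 and -0.057 to 0.17 for Cdh3. Causes were not tested.

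In every group 26 to 38 of the 50 members were below the median of all clusters. Values of near-identical genes are uncertain where their probes share signal, and 3 arrays a group limit the Dlx5 comparison to intervals.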
